A study of Mus musculus with 18 samples.

Results

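Goblet cells make the mucus of the colon, and the genes described here are 10 symbols that mark these cells or their secretions: Muc2, Clca1, Clca2, Fcgbp, Zg16, Agr2, Tff3, Spdef, Reg4 and Atoh1. The members were taken by symbol from the colon count table, which held 9 of the 10 among its 14987 genes. Muc2 was not analysed here. All 9 passed the filter on low counts, as did 13445 genes in all. Clca1 and Clca2 were selected on their colon counts, as genes low with nivolumab relative to sham, so their differences between colon groups are given as values without a test, and so is every comparison of nivolumab with sham.

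The colon data were bulk RNA sequencing of wild-type (WT) mice in 3 groups of 3 libraries. The nivolumab group had bone cancer and was given nivolumab, a therapeutic antibody raised to the human checkpoint receptor PD-1. The cancer group had bone cancer and was given IgG, and the sham group had the sham procedure and IgG. The sources used here do not give the tumour line, the strain, sex or age of the mice, the doses or the stretch of colon taken. They also do not say whether libraries of a group came from separate animals, so each p-value reflects the spread among these libraries alone, part of which may be technical.

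In the colon, stem cells of the crypt divide into absorptive and secretory daughters, and the transcription factor Atoh1 sets the secretory fate that Spdef then steers toward mature goblet cells. Goblet cells pack the gel-forming mucin into granules with the help of Agr2, a protein disulfide isomerase of the endoplasmic reticulum. They release it with Clca1, a metalloprotease that acts on the mucus gel, Fcgbp, a large mucus protein with von Willebrand D domains, Zg16, a lectin that binds Gram-positive bacteria, and Tff3, a trefoil peptide that aids epithelial repair. Reg4 is a C-type lectin that in mouse colon marks deep crypt secretory cells next to the stem cells. Mouse Clca2 is a relative of Clca1 known mainly from stratified squamous epithelia such as skin.

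The genes fell into several kinds of pattern. Clca1, Clca2 and Fcgbp were lowest with nivolumab, with cancer between nivolumab and sham in group means. Reg4 was lowest with cancer, with nivolumab between cancer and sham. Zg16 and Tff3 had their highest means with cancer and their lowest with sham. For cancer against sham the log2 fold change of Zg16 was 1.63, beside −1.58 for Clca1 and −0.58 for Fcgbp. Agr2, Spdef and Atoh1 varied least over the libraries. None of the 7 members that could be tested passed an adjusted p of 0.05 in edgeR.

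The upstream sequences of Reg4, Clca2 and Fcgbp are shown because these genes had the largest differences among the members with an entry in the RefSeq promoter table (GRCm38.p6), in which Clca1, Zg16 and Tff3 had none. Each line gives the 250 bases before the start that RefSeq gives, 5′ to 3′ on the gene's strand. The Clca2 window lies inside the GENCODE span of the gene, which begins further upstream. Capitals mark the letters searched on both strands, which were the E-boxes CAGCTG and CAGATG, a core bound by basic helix-loop-helix factors such as Atoh1, the GATA core GATAA, the CDX core TTTAT and the SPDEF core CCGGAT. None of these matches overlapped another.
Reg4, chr3:98221906-98222155, plus strand: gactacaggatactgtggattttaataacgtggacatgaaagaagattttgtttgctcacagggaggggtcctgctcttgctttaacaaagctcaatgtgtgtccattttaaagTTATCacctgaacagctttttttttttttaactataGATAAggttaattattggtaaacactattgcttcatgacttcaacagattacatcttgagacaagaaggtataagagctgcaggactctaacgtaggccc
Clca2, chr3:145099107-145099356, minus strand: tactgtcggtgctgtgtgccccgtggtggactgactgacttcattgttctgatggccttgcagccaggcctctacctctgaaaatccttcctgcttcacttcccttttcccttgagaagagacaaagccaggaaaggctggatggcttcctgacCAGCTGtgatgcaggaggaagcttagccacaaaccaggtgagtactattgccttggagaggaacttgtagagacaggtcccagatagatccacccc
Fcgbp, chr7:28070986-28071235, plus strand: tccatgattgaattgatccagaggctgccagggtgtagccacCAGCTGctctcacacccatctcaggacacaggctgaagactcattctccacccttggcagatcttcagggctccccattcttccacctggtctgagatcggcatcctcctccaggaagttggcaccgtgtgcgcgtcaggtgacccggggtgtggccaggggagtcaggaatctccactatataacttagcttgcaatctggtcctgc

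Clca2 held one CAGCTG, starting 96 bases before the gene's start, and Fcgbp held one, starting 208 bases before it. Reg4 held the GATA core at 136 (on the other strand) and 100 bases before its start and neither E-box. Of 32851 promoters of this length, 13.0% held CAGCTG, 14.4% CAGATG, 22.6% GATAA, 37.3% TTTAT and 4.94% CCGGAT. The Agr2 and Spdef windows each held the CDX core once, and that of Atoh1 held none of the 5 motifs. A match of letters is a description and shows no binding.

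Library totals ran from 20896854 to 30803957 counts in the colon, and levels are given as CPM, counts scaled to a common library size with TMM factors. A count of 3 corresponded to 0.095 to 0.149 CPM. No pair of libraries of a group agreed within sampling noise, the lowest chi-square per degree of freedom being 73.1. Fewer goblet cells and less of a transcript per goblet cell cannot be told apart in bulk tissue. Smooth muscle markers differed widely between libraries, with list means of 7.28 to 7.82 log2 CPM in nivolumab, 8.41 to 10.10 in cancer and 6.22 to 10.03 in sham libraries. Pan-epithelial markers were steadier, with summed levels of 21210 to 30480 CPM in nivolumab, 24180 to 31250 in cancer and 17650 to 27170 in sham libraries. Posterior position genes, which are expressed toward the rectum, also varied within and between groups. Hoxb13 had 0.923, 241.4 and 42.2 CPM in nivolumab, 74.8, 15.5 and 5.12 in cancer and 92.2 to 200.6 in sham libraries, so cancer lay below sham in every library. Hoxa13 went the other way in means, with 68.1 ± 15.4 CPM with cancer and 42.0 ± 21.5 with sham. Of 6 tested position genes, 2 were positive and 4 negative for cancer against sham (median −1.10). The part of position in the member differences was not tested.

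Clca1 (ENSMUSG00000028255, chromosome 3, 145003817 to 145032776, GRCm38, minus strand) had 955, 1029 and 552 CPM in nivolumab 1, 2 and 3. It had 13258, 1776 and 1741 CPM in cancer 1, 2 and 3, and 14104, 18793 and 17248 CPM in sham 1, 2 and 3. All nivolumab libraries lay below all cancer libraries, and all cancer libraries below all sham libraries, but cancer 1 lay close to the lowest sham library. The mean was 845 ± 257 CPM with nivolumab, 5592 ± 6639 with cancer and 16715 ± 2390 with sham (SD, n = 3 each). The fitted log2 fold change was −4.31 for nivolumab against sham, −2.73 for nivolumab against cancer and −1.58 for cancer against sham. Without cancer 1 the value was −1.09 for nivolumab against cancer and −3.23 for cancer against sham. In every sham library Clca1 had the highest count of all genes, and in nivolumab libraries it ranked 87, 75 and 195. Of the 14 immune markers, all tested, 4 had positive and 10 negative fold changes for cancer against sham, and 9 positive and 5 negative for nivolumab against cancer. Their summed level was 440.1 to 852 CPM in nivolumab, 247 to 611 in cancer and 1305 to 1538 in sham libraries. The plasma cell gene Jchain had 228 ± 65.2 CPM with nivolumab, 169 ± 83.8 with cancer and 1029 ± 117 with sham (SD, n = 3 each), most of that sum in sham. The neutrophil genes S100a8 and S100a9, named after their values were seen, had the opposite order of means to Clca1. S100a8 had 32.9, 4.47 and 40.4 CPM in nivolumab, 3.496, 15.4 and 1.54 in cancer and 0.41, 0 and 0 in sham libraries. S100a9 averaged 48.9 ± 34.3 CPM with nivolumab, 10.4 ± 14.1 with cancer and 0.341 ± 0.333 with sham. Its cancer libraries had 4.445, 26.5 and 0.298 CPM, and cancer 3 lay below sham 1 (0.665) and sham 2 (0.357). The part of these cells in the Clca1 difference was not tested.

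Clca2 (ENSMUSG00000036960, chromosome 3, 145070263 to 145099443, minus strand) was a scarce transcript. Its counts were 7, 12 and 7 in nivolumab, 22, 2 and 13 in cancer and 167, 209 and 261 in sham libraries. Both tumour-bearing groups lay far below sham and overlapped each other. In CPM the means were 0.306 ± 0.087 with nivolumab, 0.561 ± 0.437 with cancer and 7.43 ± 1.87 with sham (SD, n = 3 each), and the sham mean was 24.3 times the nivolumab mean. Since Clca2 is known from stratified squamous epithelium, markers of that tissue were set beside it: 15 of 20 were in the table and 10 were tested. Their summed level was 39.4 to 60.8 CPM in nivolumab, 177.8 to 400.8 in cancer and 34.9 to 56.2 in sham libraries. Single genes made up most of these sums: Ly6d in cancer libraries, with 95.9 to 355 CPM, and Sprr1a in sham libraries, with 21.3 to 36.9 CPM. The basal keratin Krt5, named as a defining marker outside the rule on abundance, stayed at or under 0.994 CPM in every colon library. The part of squamous tissue in the Clca2 levels was not tested.

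Fcgbp (ENSMUSG00000047730, chromosome 7, 28071236 to 28120862, plus strand) had 1077, 1245 and 541 CPM in nivolumab libraries. It had 7070, 1799 and 1144 CPM in cancer and 3679, 6114 and 5155 CPM in sham libraries. Nivolumab lay below sham in every library, whereas cancer spanned both, with cancer 1 above all sham libraries. The log2 fold change of nivolumab against cancer was −1.81 (SE 0.65, unadjusted p = 0.0213, adjusted p = 0.489, edgeR) and that of cancer against sham was −0.58 (SE 0.63, adjusted p = 0.709, edgeR). Neither passed the threshold, and without cancer 1 the value was −0.66 for nivolumab against cancer and −1.74 for cancer against sham. Of the 50-base words of Fcgbp transcripts, 6.42% also occurred in transcripts of other genes, 9530053A07Rik and B230219D22Rik, so a part of its reads could be shared, and the other members shared none.

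Clca1 and Fcgbp varied together over the libraries, and Clca1 spanned the wider range. The ratio of Clca1 to Fcgbp counts was 0.887, 0.827 and 1.02 in nivolumab, 1.88, 0.987 and 1.52 in cancer and 3.83, 3.07 and 3.35 in sham libraries. The sham ratios lay above all others.

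**Figure D1:**
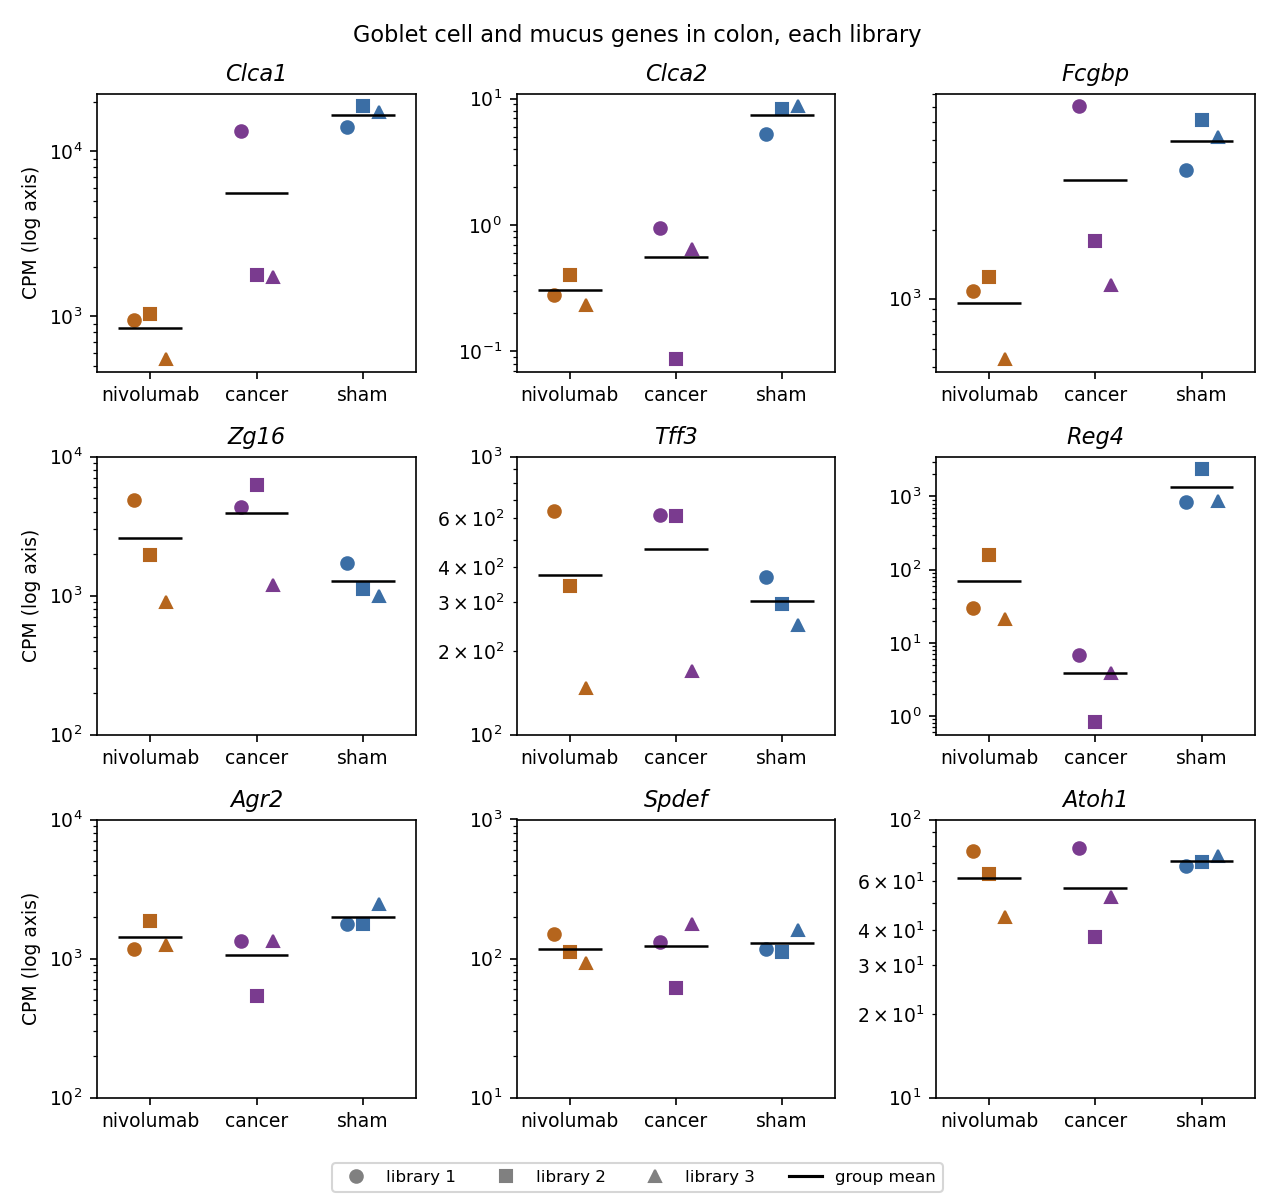
CPM of each of the 9 genes (log axis) in the 3 libraries of the nivolumab, cancer and sham groups, with marker shape giving the library number and bars the group means. Clca1, Clca2, Fcgbp and Reg4 have all nivolumab libraries below all sham libraries, and cancer 1 lies apart from the other cancer libraries for Clca1 and Fcgbp.

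Reg4 (ENSMUSG00000027876, chromosome 3, 98222156 to 98236748, plus strand) showed the largest difference among the members. It had 29.7, 157.6 and 21.4 CPM in nivolumab libraries, 6.91, 0.827 and 3.88 CPM in cancer libraries and 853, 2362 and 875 CPM in sham libraries. The groups did not overlap in any pairing: cancer was lowest, nivolumab between and sham highest. The sham mean of 1364 ± 865 CPM was 352 times the cancer mean of 3.87 ± 3.04 CPM (SD, n = 3 each). Cancer against sham gave a log2 fold change of −8.46 (SE 1.204, unadjusted p = 6.84e-05, adjusted p = 0.0748, edgeR), which did not pass 0.05. Nivolumab against cancer gave 4.17 (SE 1.00, unadjusted p = 0.00257, adjusted p = 0.354, edgeR), which did not pass either. Nivolumab against sham, described only, gave −4.29.

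The outcome for Reg4 depended on the tool. DESeq2 gave it no p-value, because its screen for outlying counts removed the gene. With that screen turned off, an alternative chosen after seeing the data, DESeq2 gave adjusted p = 4.01e-21 for cancer against sham and adjusted p = 0.000194 for nivolumab against cancer. Over all alternatives the adjusted p of Reg4 ran from 4.01e-21 to 0.254 for cancer against sham and from 0.000194 to 0.862 for nivolumab against cancer. Its log2 fold change ran from −9.16 to −7.81 in the first comparison and from 2.70, without nivolumab 2, to 4.86 in the second. Without nivolumab 2 the difference of nivolumab from sham was −5.73.

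Markers of stem and transit-amplifying cells, the neighbours of Reg4 cells in the crypt, were set beside these values. All 9 tested markers had negative fold changes for cancer against sham (median −1.23) and positive ones for nivolumab against cancer (median 0.93), and none passed 0.05. Their summed level was 393 to 1298 CPM in nivolumab, 256 to 727 in cancer and 1116 to 1411 in sham libraries. The proliferation gene Mki67 had 72, 345 and 491 CPM in nivolumab, 218, 23.1 and 235 in cancer and 352, 354 and 486 in sham libraries. The part of crypt markers in the Reg4 difference was not tested.

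The secreted products Zg16 and Tff3 had higher means in both tumour-bearing groups than in sham, unlike Clca1. Zg16 (ENSMUSG00000049350, chromosome 7, 127050156 to 127087328, minus strand) had 4863, 1973 and 893 CPM in nivolumab, 4325, 6279 and 1192 CPM in cancer and 1716, 1115 and 987 CPM in sham libraries. Both tumour-bearing groups overlapped sham, each with 2 libraries above all sham libraries. Cancer against sham gave 1.63 (SE 0.70, unadjusted p = 0.0451, adjusted p = 0.446, edgeR) and nivolumab against cancer −0.61 (SE 0.68, adjusted p = 0.717, edgeR). A lincRNA, Gm44939, and an snRNA, Gm22747, overlap the annotated span of Zg16 on the opposite strand. Whether they overlap its exons was not examined, and the strand setting is not stated, so it is not known whether their reads could count toward Zg16.

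Tff3 (ENSMUSG00000024029, chromosome 17, 31125306 to 31129646, minus strand) had 634.9, 342 and 147 CPM in nivolumab, 614, 609 and 169 CPM in cancer and 368, 294 and 248.8 CPM in sham libraries. The groups overlapped. It gave 0.61 (SE 0.57, adjusted p = 0.673, edgeR) for cancer against sham and −0.31 (SE 0.57, adjusted p = 0.828, edgeR) for nivolumab against cancer. Tff3 and Zg16 were high and low in the same libraries, with nivolumab 1, cancer 1 and cancer 2 highest and nivolumab 3 lowest for both. Their mean-centred log2 CPM profiles over the 9 libraries differed by a root mean square of 0.444, against 2.35 between Clca1 and Zg16. The less variable members were as close or closer: Spdef with Atoh1 (0.319), Agr2 with Atoh1 (0.423) and Agr2 with Spdef (0.442).

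Agr2 (ENSMUSG00000020581, chromosome 12, 35992907 to 36004087, plus strand), needed for mucin folding, had 1166, 1854 and 1245 CPM in nivolumab, 1330.1, 535 and 1337 CPM in cancer and 1779, 1758 and 2481 CPM in sham libraries. All cancer libraries lay below all sham libraries. Cancer against sham gave −0.91 (SE 0.36, unadjusted p = 0.0327, adjusted p = 0.411, edgeR) and nivolumab against cancer 0.41 (SE 0.36, adjusted p = 0.655, edgeR), so neither difference passed.

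The transcription factors had the smallest differences. Spdef (ENSMUSG00000024215, chromosome 17, 27714352 to 27728955, minus strand) had 150.02, 111 and 93.1 CPM in nivolumab, 132, 61.1 and 177 CPM in cancer and 117, 111 and 161 CPM in sham libraries. Atoh1 (ENSMUSG00000073043, chromosome 6, 64729125 to 64731245, plus strand) had 77, 63.6 and 44.6 CPM in nivolumab, 79.2, 37.7 and 52.7 CPM in cancer and 67.9, 70.3 and 73.9 CPM in sham libraries. The 3 groups overlapped for both genes. For cancer against sham Spdef gave −0.08 (SE 0.36, adjusted p = 0.941, edgeR) and Atoh1 −0.32 (SE 0.28, adjusted p = 0.653, edgeR). For nivolumab against cancer Spdef gave −0.06 (SE 0.36, adjusted p = 0.949, edgeR) and Atoh1 0.13 (SE 0.28, adjusted p = 0.854, edgeR). Atoh1 in sham was the steadiest of all members, with a coefficient of variation of 4.3%, against 26.4% in nivolumab and 37.2% in cancer.

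**Figure D2:**
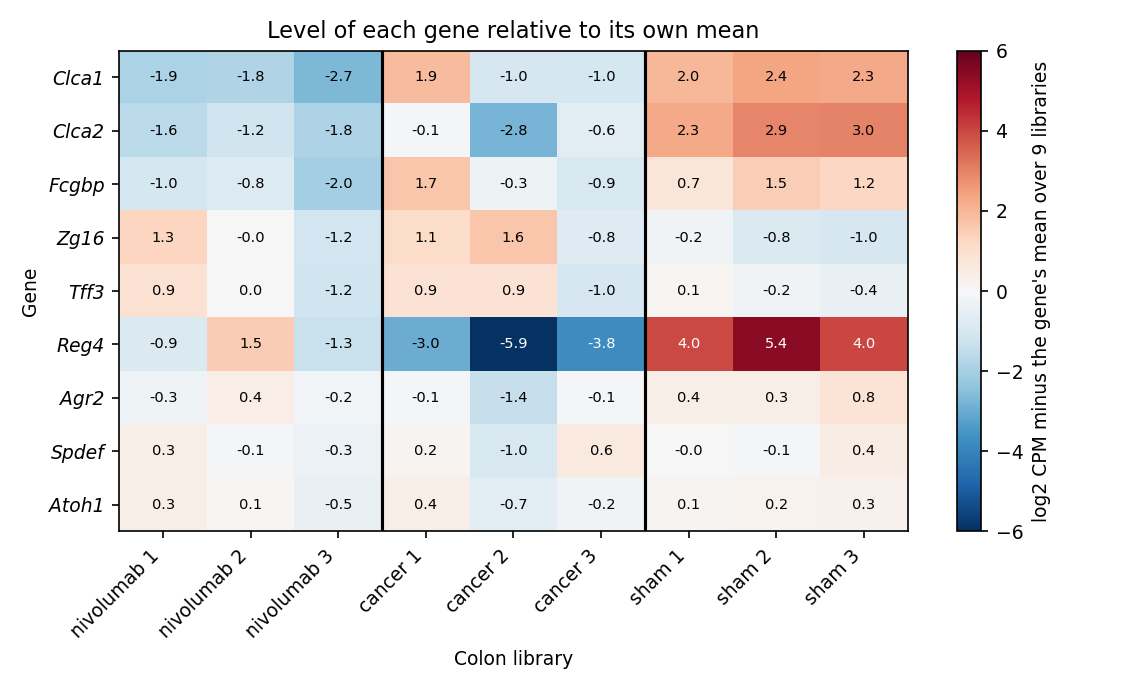
Each gene's log2 CPM in each colon library minus that gene's mean over the 9 libraries, with positive values in red and negative in blue. Agr2, Spdef and Atoh1 vary least, Zg16 and Tff3 share a pattern, and Reg4 spans the widest range.

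Counted over the members, 4 of 9 had all cancer libraries below all sham libraries (Clca1, Clca2, Agr2 and Reg4), a pattern that 12.3% of all tested genes showed in that direction and 19.3% in either direction. Clca1 and Clca2 had been chosen with the sham libraries, which leaves 2 of the other 7. No member had all cancer libraries above sham, which 6.96% of genes did. Between nivolumab and cancer, 0 of those 7 were lower without overlap (7.16% of genes were) and 1, Reg4, was higher (7.99% of genes were), beside 15.2% of genes in either direction. Clca1 was also lower without overlap there, but it had been chosen with the nivolumab libraries. For nivolumab against sham, the comparison that chose the list, 4 of 9 were lower without overlap (Clca1, Clca2, Fcgbp and Reg4) and none higher, beside 6.11% of all genes lower, 8.81% higher and 14.9% in either direction.

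In edgeR 0 of the 7 tested members passed for cancer against sham and 0 for nivolumab against cancer, where 0% of all 13445 genes passed in each. At an unadjusted p under 0.05 there were 3 members and 1468 genes (10.9%) in the first comparison and 2 members and 1323 genes (9.84%) in the second. DESeq2 called 379 genes and 0 members in the first and 181 genes and 0 members in the second. With its outlier screen off it called Reg4 as the 1 member in each, among 384 and 191 genes. The 7 members other than Clca1 and Clca2 had a median log2 fold change of −0.32 for cancer against sham, where all genes had 0.002, and of −0.06 for nivolumab against cancer, where all genes had 0.03. Over all 9 the medians were −0.58 and −0.31 in the same order, to which the selected genes contribute. These comparisons share the cancer libraries, and their values are not independent.

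**Figure D3:**
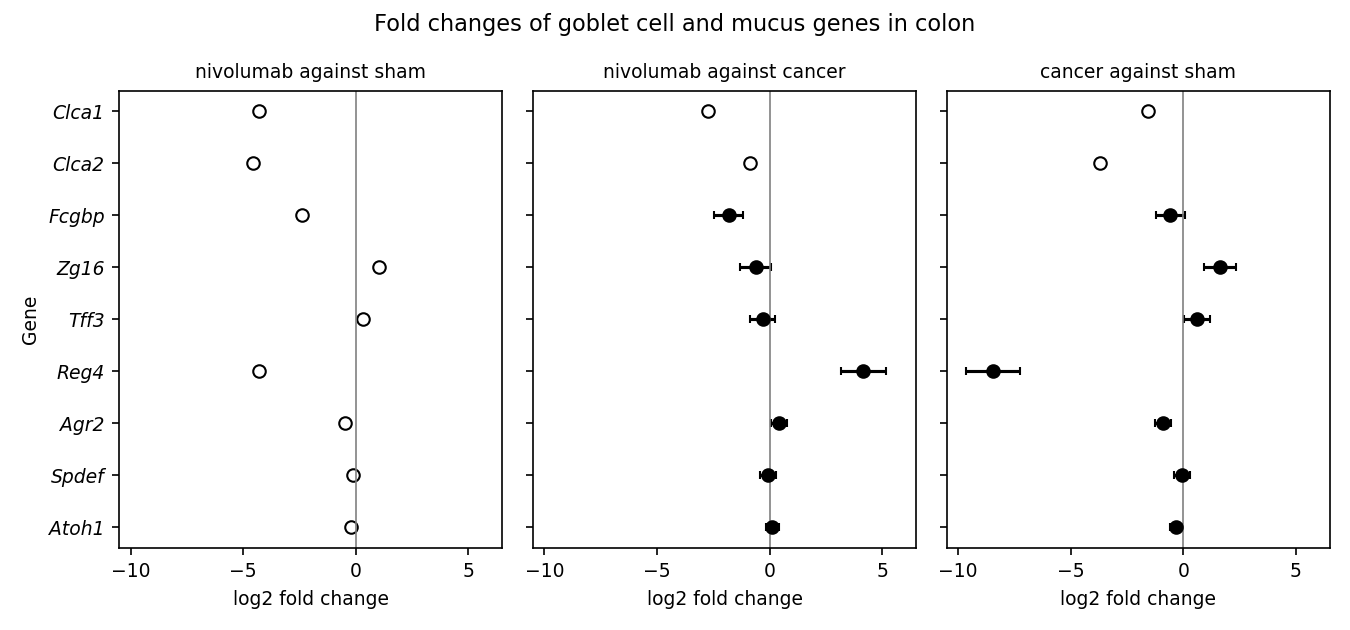
Log2 fold changes of the 9 genes from edgeR in 3 comparisons, filled points with SE bars for values that were tested and open points for values given without a test. Reg4 has −8.46 for cancer against sham and 4.17 for nivolumab against cancer, while Spdef and Atoh1 lie near 0 in all panels.

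The make-up of the goblet gene transcripts differed between libraries. The 9 genes took 0.854%, 0.673% and 0.366% of all counts in nivolumab, 2.67%, 1.13% and 0.56% in cancer and 2.33%, 3.16% and 2.68% in sham libraries. Clca1 alone took 0.0911%, 0.102% and 0.0571% in nivolumab, 1.32%, 0.181% and 0.168% in cancer and 1.45%, 1.94% and 1.7% in sham libraries. It had been chosen as low with nivolumab relative to sham, so the summed share and the make-up follow in large part from that choice. Clca1 made up 10.7%, 15.2% and 15.6% of their summed counts in nivolumab, 49.4%, 16% and 29.9% in cancer and 62.2%, 61.4% and 63.3% in sham libraries. Zg16 made up 54.3%, 29.1% and 25.2% in nivolumab, 16.1%, 56.6% and 20.5% in cancer and 7.56%, 3.64% and 3.62% in sham libraries. The widest Wilson 95% interval of such a share was 0.576 percentage points, which covers counting error only. The sham libraries were alike in this make-up. Shares sum to a fixed total, so a larger Zg16 share goes with a smaller Clca1 share: in CPM, Zg16 in nivolumab 3 lay below every sham library and in cancer 3 within the sham range.

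**Figure D4:**
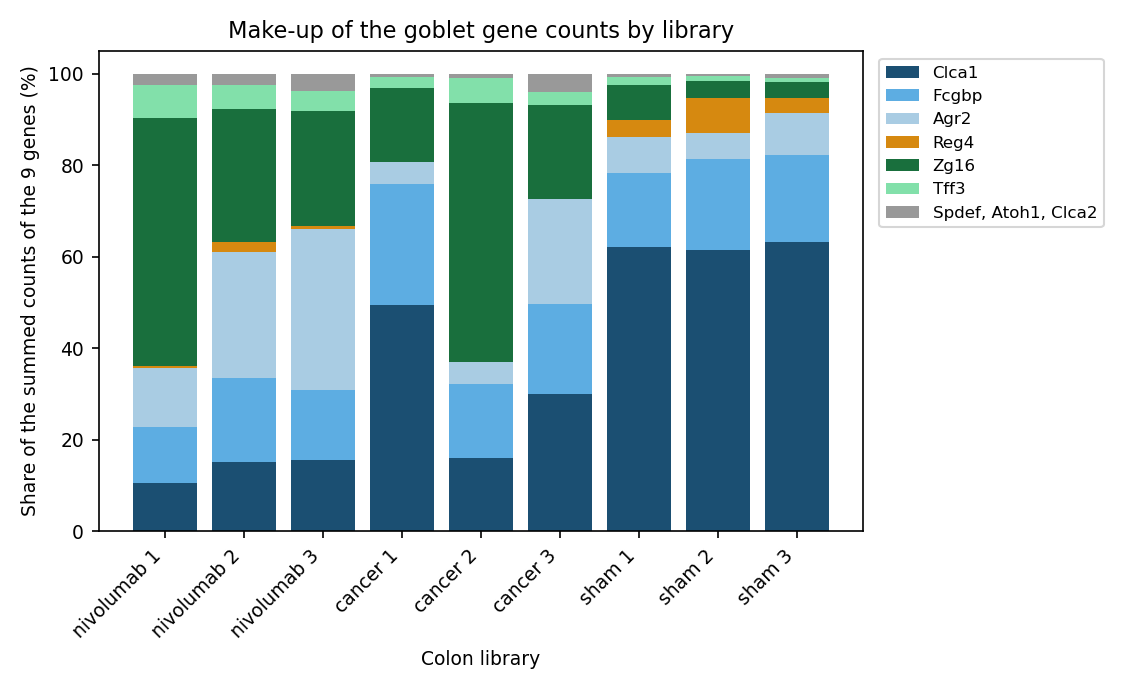
Stacked shares (%) of the summed counts of the 9 genes in each colon library, with Spdef, Atoh1 and Clca2 joined in one segment. Clca1 takes 61.4% to 63.3% in sham libraries and 10.7% to 15.6% in nivolumab libraries, where Zg16 takes 25.2% to 54.3%. Clca1 had been chosen as low with nivolumab relative to sham.

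Scaled to exon length, the order of the members' levels also differed, with the place of Clca1 subject to the same choice. In nivolumab libraries Zg16 was first (2049 ± 1630 CPM per kb), followed by Agr2 (1101 ± 292), Tff3 (760.2 ± 498), Clca1 (223.8 ± 68), Fcgbp (90.9 ± 35) and Reg4 (68.2 ± 74.8). In cancer libraries Zg16 was first (3128 ± 2040 CPM per kb) and Clca1 the next (1481 ± 1760), and the overlapping neighbours were Zg16 with Clca1, Clca1 with Tff3, Tff3 with Agr2, Agr2 with Fcgbp and Spdef with Atoh1. In sham libraries Clca1 was first (4425 ± 633 CPM per kb), followed by Agr2 (1554 ± 319), Reg4 (1336 ± 847), Zg16 (1012 ± 310), Tff3 (616 ± 122) and Fcgbp (475 ± 117) (SD, n = 3). Neighbours whose library values overlapped were Zg16 with Agr2, Agr2 with Tff3, Fcgbp with Reg4 and Reg4 with Spdef in nivolumab, and Agr2 with Reg4, Reg4 with Zg16 and Tff3 with Fcgbp in sham. Spdef, Atoh1 and Clca2 followed in that order in sham, with Clca2 last in every group.

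The levels were also set against the summed CPM of the pan-epithelial markers. The log2 ratio of Clca1 to that sum was −5.26 to −4.67 in nivolumab, −4.17 to −1.02 in cancer and −0.66 to 0.09 in sham libraries. That of Reg4 was −10.00 to −7.37 in nivolumab, −14.84 to −11.93 in cancer and −4.96 to −2.90 in sham libraries. Between cancer and sham the mean log2 ratio of Agr2 differed by −1.32, that of Atoh1 by −0.70 and that of Zg16 by 1.06. These are differences of mean log2 values, a measure unlike the edgeR fold changes. Without this scaling the mean log2 CPM was 9.94 with cancer and 10.95 with sham for Agr2. It was 5.76 and 6.14 for Atoh1, and 11.64 and 10.27 for Zg16.

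Genes of the goblet cell programme outside the member list were then described, none of which passed an adjusted p of 0.05 in either tested comparison. Of 15 genes of secretion and stress handling in goblet cells, 3 had positive and 12 negative fold changes for cancer against sham (median −0.31), and 8 positive and 7 negative for nivolumab against cancer (median 0.06). The kallikrein Klk1 had 1108, 408.5 and 329 CPM in nivolumab, 801, 283 and 479.6 CPM in cancer and 899, 811 and 640.2 CPM in sham libraries, nivolumab 1 being above all others and the other nivolumab libraries below all sham libraries. The inflammasome component Nlrp6 had 452 ± 97.8 CPM with nivolumab, 385 ± 94.4 with cancer and 429.8 ± 121 with sham (SD, n = 3 each). Among 16 tested genes of mucin O-glycosylation, the median was −0.05 for cancer against sham and 0.12 for nivolumab against cancer. The fucosyltransferase Fut2 had 527 ± 104 CPM with nivolumab, 636 ± 98.8 with cancer and 364 ± 76.7 with sham. The sialyltransferase St3gal4 had 175, 391 and 369 CPM in nivolumab, 216, 125 and 21.0 CPM in cancer and 984, 776 and 881 CPM in sham libraries, with sham apart from the others. The St3gal4 values were −2.87 for cancer against sham (adjusted p = 0.244, edgeR) and 1.37 for nivolumab against cancer (adjusted p = 0.523, edgeR). The membrane mucin Muc13 had 3638 ± 398 CPM with nivolumab, 3885 ± 778 with cancer and 2945 ± 337 with sham. Muc4 had 226 ± 88.6 CPM with nivolumab, 425 ± 244 with cancer and 369.7 ± 102 with sham. All 5 tested mucins were positive for cancer against sham (median 0.50) and all 5 negative for nivolumab against cancer (median −0.91).

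A further list had 4 tested genes: the goblet cell products Retnlb and Spink4 and, listed with them, the meprin proteases Mep1a and Mep1b. Of these 4, 3 had negative fold changes for cancer against sham (median −0.56) and 2 for nivolumab against cancer (median −0.15). Both medians depend on the meprins. Mep1a gave −0.53 for cancer against sham and 0.29 for nivolumab against cancer, and Mep1b gave 0.33 and −0.31 in the same order. Retnlb, a bactericidal resistin-like protein, had 670.3, 463 and 468 CPM in nivolumab, 1596, 711.5 and 1507 CPM in cancer and 1683, 1534 and 2524 CPM in sham libraries. Nivolumab lay below the other groups in every library, and the adjusted p was 0.378 for nivolumab against cancer (−1.25) and 0.545 for cancer against sham (−0.59, edgeR). Spink4 had 171, 416 and 135 CPM in nivolumab, 343, 113 and 260.0 CPM in cancer and 847, 1125 and 736 CPM in sham libraries, all sham libraries being highest (cancer against sham −1.92, adjusted p = 0.273, edgeR).

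The Reg3 lectins, antimicrobial relatives of Reg4, had higher means in the tumour-bearing groups than in sham, although Reg3b in nivolumab 2 lay below sham 1. Reg3b had 6817, 723 and 5531 CPM in nivolumab, 3903, 8033 and 3438 CPM in cancer and 781, 91.7 and 389.9 CPM in sham libraries. Reg3g had 1462, 294 and 1729 CPM in nivolumab, 1873, 1888 and 1148 CPM in cancer and 227, 48.4 and 114 CPM in sham libraries. Cancer lay above sham in every library for both genes, and nivolumab 2, which had the most Reg4 of the tumour-bearing libraries, had the least Reg3b and Reg3g among them. Cancer against sham gave 3.61 for Reg3b (adjusted p = 0.274, edgeR) and 3.66 for Reg3g (adjusted p = 0.181, edgeR).

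Among 14 tested genes of lineage specification and Notch signalling, the median was −0.18 for cancer against sham and 0.11 for nivolumab against cancer. Klf4, a factor of goblet cell maturation, had 603 ± 71.6 CPM with nivolumab, 906 ± 147 with cancer and 781 ± 141 with sham. Foxa1 had 91.7 ± 8.66 CPM with nivolumab, 71.7 ± 21.1 with cancer and 85.2 ± 16.7 with sham (SD, n = 3 each). Gfi1, a factor downstream of Atoh1 named here after its values were seen, had 9.31, 10.2 and 8.38 CPM in nivolumab, 7.34, 5.66 and 9.15 CPM in cancer and 15, 19.5 and 25.3 CPM in sham libraries (cancer against sham −1.43, adjusted p = 0.172, edgeR). All sham libraries were above all others for Gfi1.

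Type 2 cytokine signalling, through which IL-13 is known to induce Clca1, was listed with IL-22 signalling as 15 genes, of which 13 were in the table and 9 were tested. Of these 9, 5 were positive and 4 negative for cancer against sham (median 0.26), and 2 positive and 7 negative for nivolumab against cancer (median −0.18), and none passed 0.05. Il13ra1 had 145 ± 22.8 CPM with nivolumab, 222 ± 34.7 with cancer and 128 ± 11.7 with sham. Stat6 had 149.8 ± 15.5 CPM with nivolumab, 168 ± 5.4 with cancer and 140.1 ± 6.86 with sham (SD, n = 3 each). Il13 itself, named after its values were seen, had 0 counts in each nivolumab and each cancer library and 14, 21 and 5 counts in sham libraries. It was too scarce to pass the filter, and a count of 0 allows up to 0.101 to 0.149 CPM in those 6 libraries, taking 3 counts as the limit. Other type 2 genes, also named after their values were seen, had varied patterns. Il5 also had its highest mean in sham, with 5, 4 and 3 counts in nivolumab, 0, 7 and 3 in cancer and 16, 19 and 4 in sham libraries, and its groups overlapped. Il33 averaged 17.9 ± 8.93 CPM with nivolumab, 7.96 ± 7.58 with cancer and 3.73 ± 1.58 with sham. Il4 had 7, 7 and 13 counts in nivolumab, 1, 18 and 5 in cancer and 16, 14 and 2 in sham libraries, and the groups overlapped. Gata3 averaged 2.25 ± 0.684 CPM with nivolumab, 5.72 ± 2.92 with cancer and 1.54 ± 0.255 with sham, with cancer above both other groups in every library. The part of Il13 in the Clca1 difference was not tested.

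**Figure D5:**
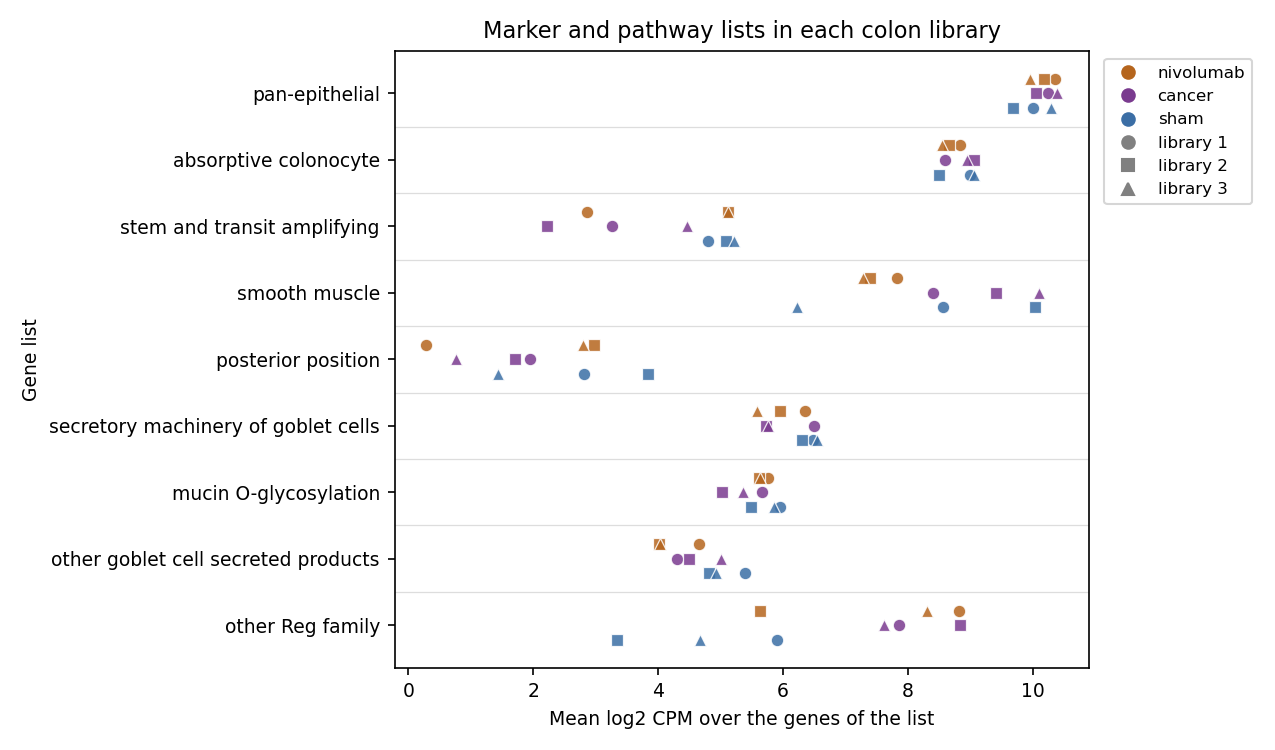
Mean log2 CPM over the genes of each marker or pathway list in each colon library, coloured by group with marker shape giving the library number. Pan-epithelial levels are close in all libraries, while smooth muscle, stem and Reg family lists spread widely.

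The genes whose library pattern was most like that of Clca1 were Clps, Fcgbp, Grpr, Fam221a and Scin, with root mean square differences of mean-centred log2 CPM from 0.815 to 0.955 over 9 libraries. Those most like Clca2 were Clps, Gsdmc, Fam221a, Wee2 and Clca1 itself, from 0.701 to 1.02. The median over all genes was 2.01 for Clca1 and 2.09 for Clca2, below which the nearest genes lie by construction. A gene at one level in all libraries would differ by 1.96 from Clca1 and 2.06 from Clca2. Clps is known as the colipase of pancreatic juice. Fcgbp was the 1 member of the goblet list besides Clca1 and Clca2 to appear.

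In the spinal dorsal horn, a tissue without goblet cells from the same 3 groups, 8 of the 10 symbols were in the table. Tff3 had counts in 1 of 9 libraries (7 counts, cancer 1) and Reg4 in 1 (4 counts, nivolumab 2). Clca1 reached at most 18 counts, Zg16 17, Agr2 16 and Clca2 10. Cancer 1 held the highest count of Clca1, Tff3, Fcgbp, Zg16 and Agr2 among these libraries, and Clca2 had 8, 10 and 10 counts in nivolumab libraries, 4 in cancer 3 and 0 in the others. Spdef (12 to 51 counts) and Fcgbp (3 to 27) were present in all 9 libraries and passed the filter on low counts. These levels were at or under 1.93 CPM and were not tested.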

How the data were processed

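Bulk RNA was sequenced from colon and spinal dorsal horn. Per the labels' protocols, RNA was isolated with TRIzol and libraries were made with a SmartScribe reverse transcriptase kit. The submitters' processing notes list HISAT2, StringTie, Trimmomatic and FastQC 0.11.5, with GRCm38 as the build. How reads were counted, with which strand setting and gene filter, is not stated. The authors deposited raw whole-number counts per gene symbol, 1 table per tissue.

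Colon counts of all 9 libraries were fitted with edgeR 4.0.16 in R 4.3.3 (TMM scaling, filter by group, robust quasi-likelihood test, two-sided, Benjamini-Hochberg adjustment over all 13445 genes, threshold 0.05), and DESeq2 1.42.0 was an alternative. The fit was tested on simulated data. The SE is the absolute fold change over the root of F. Log2 CPM used a prior count of 2. Coordinates and exon lengths are from GENCODE M21 (GRCm38).

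Depth was 20896854 to 30803957 counts per colon library, and intervals and floors cover counting error only. All 10 members are named. From other lists the rule takes up to 4 genes past the threshold, or else the 1 or 2 most abundant (Krt5, S100a8, S100a9, Gfi1, Il13, Il5, Il33, Il4 and Gata3 are named beside it), and for Clca1 and Clca2 the 5 genes with the most similar profile. The members and lists were chosen with earlier results of these data known. Of 6 other Clca family symbols listed, none was analysed here.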

Additional observations from a re-analysis of the deposited data

How the results depend on the processing

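Of 575 values recomputed under alternatives, 549 kept direction and side of the threshold or, for counts and values without a test, stayed near the reported value (other scaling, no filter, DESeq2, a fit of the 6 libraries compared, the replicate number as a block, the pan-epithelial level as a covariate, each library left out). Genes called for cancer against sham were 379 with DESeq2, 384 without its outlier screen, 1 with the replicate block, 1 with the pan-epithelial covariate and 0 to 9 with a library left out (9 without cancer 3). For nivolumab against cancer they were 181, 191, 0, 2 and 0 to 2 in the same order (2 without cancer 3). Without the outlier screen 1 member was called in each comparison (Reg4, −8.42 and 4.14). The cause of these differences was not tested.

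Members near 0 changed sign: Spdef ran from −0.43 to 0.26 for cancer against sham with a library left out. In that comparison Spdef was −0.53 with the pan-epithelial covariate (adjusted p = 0.389, edgeR). Atoh1 reached −0.53 there among the settings other than left-out libraries. For nivolumab against cancer Spdef ran from −0.42 to 0.29 and was 0.039 with the block and 0.094 with the covariate, Atoh1 ran from −0.13 to 0.42 and Tff3 from −0.99 to 0.044. Clca2 could not be fitted for nivolumab against cancer with only those 6 libraries, since it fell under the filter. For nivolumab against sham, not tested, Tff3 ran from −0.38 to 0.67 and Spdef from −0.41 to 0.045 with a library left out, and the median of all 9 members for nivolumab against cancer from −0.87 to 0.044. Reg4 for nivolumab against sham was −5.73 without nivolumab 2.

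Whether replicate numbers pair the samples is not stated, and correlations among so few libraries cannot exclude a shared batch. Deviations of same-numbered libraries correlated at −0.24 to 0.46 for cancer against sham and −0.44 to −0.08 for nivolumab against cancer. For nivolumab against sham the range was −0.035 to 0.42. In the same order, 3, 0 and 3 of 6 samples matched their own number best. The block changed no call of a member, but moved Clca1 for cancer against sham from −1.58 to −2.155.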

Other observations

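Markers of enteroendocrine and tuft cells, other specialised epithelial cells of the crypt, were looked at beside the goblet genes. Of 10 tested enteroendocrine markers, 2 had positive and 8 negative fold changes for cancer against sham (median −0.33), and 8 positive and 2 negative for nivolumab against cancer (median 0.50). Of 9 tested tuft cell markers, 2 were positive and 7 negative for cancer against sham (median −0.11), and all 9 were negative for nivolumab against cancer (median −1.13). None passed an adjusted p of 0.05 in edgeR. Chgb, a granin of enteroendocrine cells, had 60.3 ± 23 CPM with nivolumab, 52.2 ± 21.9 with cancer and 65.5 ± 23.3 with sham. The cyclooxygenase Ptgs1 of the tuft list had 47.4 ± 26.4 CPM with nivolumab, 137 ± 44.7 with cancer and 45.9 ± 21.5 with sham (SD, n = 3 each). It was among the 2 positive genes for cancer against sham, unlike the 7 negative ones. The tuft kinase Dclk1 had 20.9, 10.6 and 15.99 CPM in nivolumab, 27.7, 39.6 and 36.8 CPM in cancer and 39.2, 43.1 and 30.1 CPM in sham libraries, so nivolumab lay below the other groups in every library.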
